A study of Mus musculus with 2 samples.

Results

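The shortest regions with more histone H4 tags after SAHA than after DMSO were 2207 autosomal regions under 600 bp, or 3.63% of the 60824 regions listed on the 19 autosomes. They were chosen by their length alone, a value that comes out of the same comparison of SAHA with DMSO as the tag counts, the score and the fold. All values below therefore describe the list, and none was tested.

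The data were chromatin immunoprecipitation followed by sequencing (ChIP-seq) with an antibody named in the labels as Histone H4, which the design text of the series describes as a map of acetylated H4. Both libraries came from MC3T3 sc4 cells, an osteoblast line from mouse calvaria (the skull cap), grown in medium with ascorbic acid and beta glycerol phosphate, which drives them to form bone matrix. On day 4 of differentiation, 1 culture received 20 µM SAHA (suberoylanilide hydroxamic acid) for 2 hours and 1 culture received its solvent, DMSO. Each agent stayed on during the 40 min of collagenase that released the cells. With 1 library per condition, the spread between cultures is not known, and no interval below covers it. Intervals of tags and ratios in single regions cover counting error, and those of shares and medians cover the spread among regions taken as independent.

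Histone deacetylases remove acetyl groups from the lysines of histone tails, and SAHA blocks their catalytic site. Acetylation of the histone H4 tail weakens contacts between neighbouring nucleosomes and is found at active promoters, at enhancers and over open domains. A region as short as these spans only a few nucleosomes, whereas the longer regions of the list run over many.

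The regions under 600 bp were a thin tail of the list. Their median length was 550 bp (quartiles 514 and 578 bp), and 82.5% of them were 500 bp or longer. In all, 1121 regions measured at least 550 bp, 700 measured 500 to under 550 bp, 292 measured 450 to under 500 bp and 94 were shorter. Only 19 of the 2207 were under 400 bp. The protocol in the labels gives sonicated DNA of 200 to 500 bp, so a short region is about as long as the longest of those pieces. Together they covered 1193 kb, which was 0.935% of the length of all autosomal regions, and held 156608 SAHA tags, or 0.575% of the tags in those regions. The other 58617 autosomal regions had a median length of 1392 bp.

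Regions on either side of the limit were much alike in density, fold and score. The 270 regions of 590 to under 600 bp had a median of 125.2 SAHA tags per kb, a median summit fold of 3.86 and a median score of 63.44. The 309 regions of 600 to under 610 bp had 125.8 tags per kb, a fold of 3.86 and a score of 63.67. Of the 22 regions just 1 bp under the limit, the one of highest score lay at chromosome 16, 44165114 to 44165712, with 83 SAHA tags and a score of 92.35, and the next at chromosome 14, 124097298 to 124097896, with 82 tags and a score of 89.05. Of the 16 regions of 600 bp, the 2 of highest score held 89 tags (chromosome 4, 64233615 to 64234214) and 80 tags (chromosome 18, 54947547 to 54948146). No step in density, fold or score marks the limit. Median edge distances were less alike in the regions of 590 to under 600 bp and of 600 to under 610 bp. To the nearest other region they were 1101 and 990 bp, and to the nearest over 5 kb 107.6 and 90.5 kb. That difference was not tested.

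Most short regions held barely more SAHA tags than the caller needed. The median was 69 tags (quartiles 65 and 75), with a range of 41 to 173. A region passes at a score of 50, where the score is −log10 of the caller's Poisson p-value, multiplied by 10. Over the genome average of 66.1 SAHA tags per kb, a region of these lengths needs between 38 and 69 tags to pass, with a median of 65. None of the 2207 regions held fewer than that, 305 (13.8%) held exactly the fewest, and 1267 (57.4%, 95% Wilson interval 55.3 to 59.5%) held at most 5 tags more. Of the other regions, 3.85% lay that close to the same line, although many of these were set against a higher DMSO background, and 120 of the others held fewer tags than the line. The others also held more tags, with a median of 227, so a margin of 5 tags is a smaller part of their counts. In the plot of tags by length, the short regions crowd on the line of fewest passing tags.

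**Figure D1:**
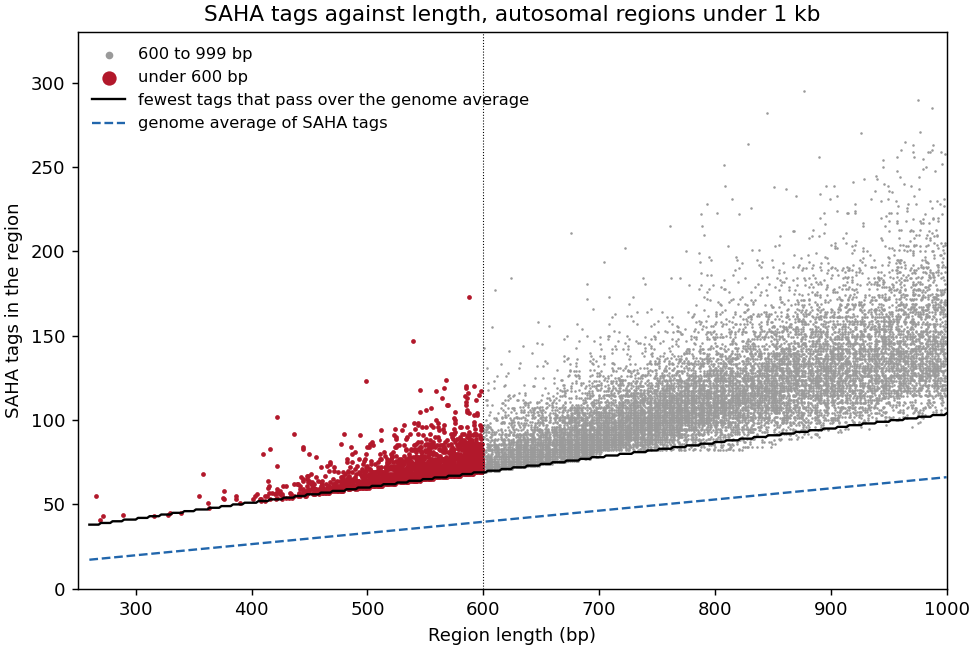
SAHA tags (y) against length in bp (x) for autosomal regions under 1 kb, with regions under 600 bp in red and longer ones in grey. The black line is the fewest tags that pass the score of 50 over the genome average, and the dashed line is that average; no red point lies below the black line, 57.4% lie at most 5 tags above it, and 2 grey points, of up to 379 tags, lie beyond the axis.

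The density of SAHA tags was low and narrow in the short regions. Their median was 126.8 tags per kb (95% interval of the median 126.3 to 127.3, quartiles 121.5 and 136.1), or 1.92 times the genome average. The other autosomal regions had a median of 162.3 tags per kb (quartiles 138.1 and 200.8), or 2.45 times the average. In 81.5% of the short regions the density was under 140 tags per kb, against 27.2% of the others. At least 200 tags per kb were found in 14 short regions (0.634%) and in 25.4% of the others. The lowest density among the short regions was 115.1 tags per kb, higher than the 97.2 of the others, and a shorter stretch needs a larger excess per kb to pass at the same background.

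Density rose with each class of length. It was 133.8 tags per kb at 600 to under 900 bp, 150.9 at 900 to under 1500 bp, 172.9 at 1500 to under 2500 bp, 207.2 at 2500 to 5000 bp and 261.8 above 5000 bp. Within the short regions it ran the other way. The 94 regions under 450 bp had a median of 134.6 tags per kb, and the 1121 regions of at least 550 bp had 126.1. The fewest tags that pass are also more per kb at shorter lengths.

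**Figure D2:**
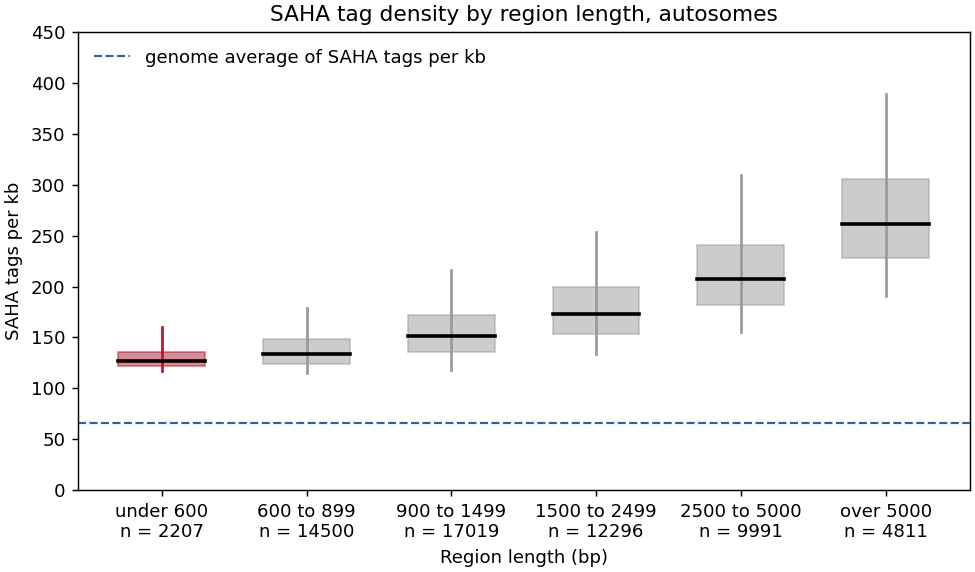
SAHA tags per kb (y) by class of region length in bp (x) on the autosomes; black lines are medians, boxes quartiles, whiskers the 5th and 95th percentiles, and the dashed line is the genome average of 66.1 tags per kb. The median of regions under 600 bp, 126.8, is the lowest of the 6 classes, and that of regions over 5000 bp, 261.8, the highest.

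The lower density of the short regions went with their low scores. The median score was 59.48 (quartiles 53.87 and 70.83), against 138.4 in the other regions. Scores under 60 were found in 51.4% of the short regions and in 8.92% of the others. A score of at least 100 was reached by 131 short regions (5.94%), where 62.6% of all autosomal regions reached it. At equal scores the densities were closer, and from a score of 80 to 200 their intervals overlapped. At scores of 50 to 60 the short regions had 121.6 tags per kb (interval of the median 121.3 to 122.0) and the others 131.5 (130.6 to 132.4). At 60 to 80 the values were 130.5 (129.7 to 130.9) and 133.6 (133.0 to 134.3). At scores of 80 to 100 they were 141.9 (140.6 to 142.6) and 140.8 (140 to 141.7), and at 100 to 200 they were 157.2 (154.5 to 160.0) and 155.6 (155.1 to 156.0). Regions of 600 to under 900 bp had 122.2, 125.7, 133.3 and 149.2 in these ranges, below the short regions from a score of 60. Tags, length and background set the score, so density at equal scores is not independent of length and background. At 80 to 100 the median length was 561 bp in the short regions and 981 bp in the others. Their median DMSO backgrounds were 1.00 and 1.23 times the genome average.

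The deposited false discovery rate of the short regions lay between 58.27% and 70.86%, with a median of 67.32%. As this caller is known to compute it (the header is silent on the point), the rate is the number of regions found after exchanging SAHA and DMSO, per 100 listed regions that score as high or higher. The others ran from 58.23% to 100%, with a median of 68.16% and quartiles of 62.87% and 70.78%. The quartiles of the short regions, 66.62% and 68.53%, lay between those of the others.

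The summit fold, which sets the highest point of SAHA coverage against the local DMSO background, was 3.75 in the median short region (quartiles 3.43 and 4.29) and 3.95 in the others (3.36 and 4.72). A fold of at least 5 was reached by 170 short regions (7.70%), where 19.1% of all autosomal regions reached it. None of the 2207 reached a fold of 10, which was rare among the others too (148 of 58617, 0.252%). At equal scores the order turned around. At scores of 50 to 60 the median fold was 3.54 in the short regions and 3.25 in the others, at 60 to 80 it was 3.86 and 3.40, and at 80 to 100 it was 4.38 and 3.55. Among regions with a score of at least 100 it was 4.93 in the short regions and 4.31 in the others. The score is computed from tags and background, so at the same score and background a shorter region has the larger excess per kb. At scores of 50 to 60 the median lengths were 543.5 bp and 828 bp. Fold at equal scores is therefore not independent of length.

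The summits of short regions were central. With each region split into 3 equal stretches, the summit lay in the middle one in 76.2% of the short regions, against 54.7% of the others, and its median distance from the middle was 57.5 bp. In the others it was 213 bp. Each fragment spans 141 bp as the caller modelled it, so a short region leaves the summit little room. The height at the summit, recovered as fold times background, came out as a whole number within 0.1 tags in 2121 of the 2124 short regions whose background was identified. Its median was 36.0 overlapping fragments, and the median share of a region's tags that overlapped its summit was 51.8%. The genome average over the same 141 bp is 9.33.

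The DMSO side of the short regions was at the floor of the method in most cases. The list gives no DMSO count, but the background behind each score can be recovered from the tags and the score, and it was compared with the backgrounds the caller could have used. In 1454 short regions (65.9%, interval 63.9 to 67.8%) it was the genome average, against 16.0% of the other regions with a recovered background. In these, if the caller took the highest of its backgrounds, the region itself held at most 11 to 24 DMSO tags. The median limit was 22 tags, beside a median of 68 SAHA tags. DMSO tags weighed 1.62 times as much as SAHA tags, because the DMSO library kept fewer of them. In 324 short regions (14.7%) the background matched DMSO tags within 10 kb, in 174 (7.88%) those within 1 kb and in 172 (7.79%) the DMSO tags of the region itself. The other 83 (3.76%) could not be assigned, against 25.02% of the longer regions. In 2198 of the longer regions (3.77%) and 1 short one the recovered background lay over 0.1% below the genome average, down to 0.778 of it. A choice of the highest background, known for this caller but not stated in the header, cannot give such values. Whether that choice or the recovery did not hold for these regions was not tested.

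Short regions over high DMSO signal were rare. The background was at least 1.5 times the genome average in 23 of them (1.04%), against 36.5% of the others. Its median over the 2207 regions was 1.00 times the average, its upper quartile was 1.03, and the highest value was 2.74. The class of 600 to under 900 bp had a median of 1.03, and regions over 5000 bp had 2.58. At equal SAHA tags, a region passes more easily where the DMSO background is low, so these shares are not independent of the cutoff.

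**Figure D3:**
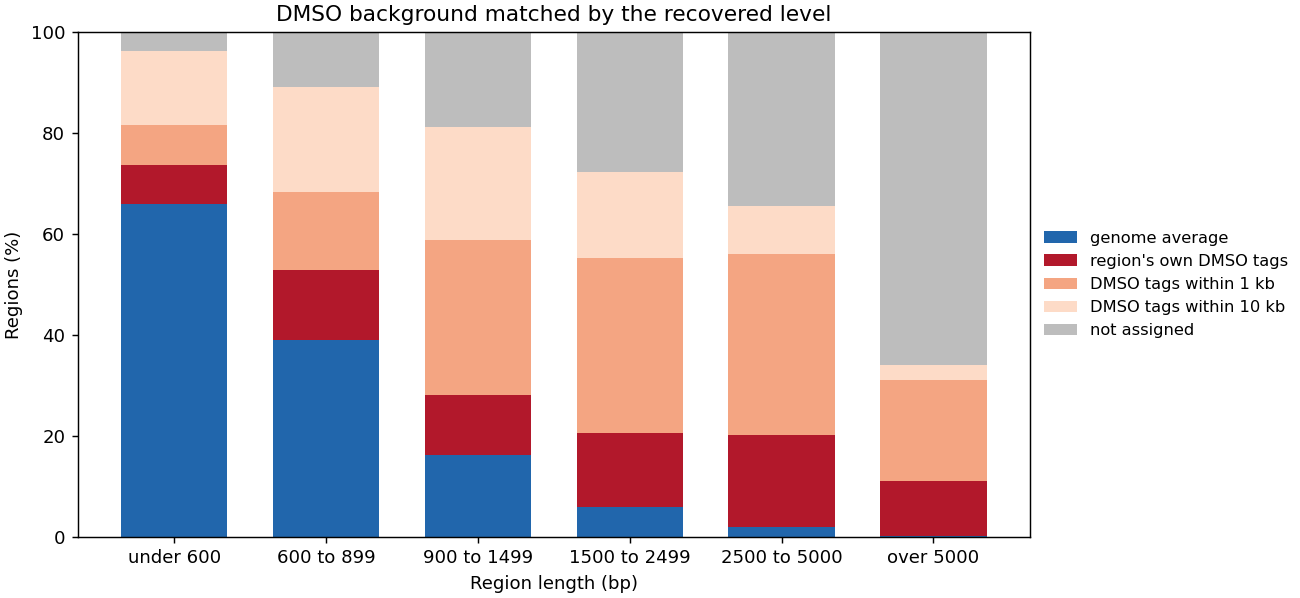
Share of autosomal regions (y, percent) by class of length in bp (x) whose recovered background matched the genome average, the region's own DMSO tags, DMSO tags within 1 kb or within 10 kb, or none of these. The genome average makes up 65.9% of the bar of regions under 600 bp and shrinks with each longer class, while the share not assigned grows from 3.76%.

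SAHA tags stood at 1.87 times the recovered background in the median short region (quartiles 1.81 and 1.97, range 1.59 to 3.26) and at 1.79 times in the others (1.58 and 2.04). If the caller took the highest background, this ratio is a lower limit of SAHA to scaled DMSO tags where the background was the genome average or a wider window. It was at least 2 in 448 short regions (20.3%) against 28.3% of the others, and at least 2.5 in 24 (1.09%) against 5.86%. The short regions thus had the higher median and fewer high values. At the same background a shorter region needs a higher ratio to pass the score cutoff. The higher median is therefore not independent of the cutoff. At scores of 50 to 60, 60 to 80, 80 to 100 and 100 to 200 the short regions had 1.81, 1.92, 2.09 and 2.30. The others had 1.58, 1.68, 1.74 and 1.84, and regions of 600 to under 900 bp had 1.68, 1.79, 1.92 and 2.11. At equal scores the ratio is bound to length as well. Whether SAHA had a stronger effect in short regions was not tested. The ratio was exact in the 172 short regions whose own DMSO tags set the background. These held 55 to 147 SAHA tags, with a median of 75, and 16 to 42 DMSO tags, with a median of 25, or 40.6 after scaling. Their median ratio was 1.85, and it ran from 1.64 to 2.66.

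Folds of 6.84 to 7.83 were found in the top 5 short regions by fold, on chromosomes 1, 6, 7 and 13. Positions are in build mm9, and neither genes nor sequence were read at them, because the reference tables used here are of another build. Chromosome 13, 5111874 to 5112449, carried the highest, 7.83. This region of 576 bp held 100 SAHA tags (95% Poisson interval 81.4 to 121.6), or 2.62 times a background at the genome average. If the caller took the highest background, it held at most 23 DMSO tags. Limits given below as at most or at least rest on that choice too. At chromosome 7, 137736896 to 137737425, the fold was 7.18, with 94 SAHA tags beside at most 21 DMSO tags. At chromosome 1, 135551222 to 135551815, 112 SAHA tags stood beside at most 24 DMSO tags, with a fold of 7.08. The region at chromosome 6, 17602005 to 17602590, had a fold of 6.86 and 106 SAHA tags over a 10 kb background of 1.09 times the average. The fifth, at chromosome 7, 137011273 to 137011859, had 116 SAHA tags and a fold of 6.84, and its background, 1.02 times the average, could not be assigned. In all 5 the background was within 10% of the genome average, and the intervals of their tag counts overlap.

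The 5 densest short regions were a different set. The densest, at chromosome 11, 57610328 to 57610915, held 173 SAHA tags in 588 bp, or 294.2 tags per kb (interval 252.0 to 341.5). Its fold was 2.94 and its ratio 1.63, both low among the short regions, since its 10 kb background was 2.74 times the average, the highest of all 2207. At chromosome 15, 10766855 to 10767393, 147 SAHA tags stood against 39 DMSO tags in the same 539 bp. The scaled ratio there was 2.32 (95% exact binomial interval 1.62 to 3.40), at 272.7 tags per kb. At chromosome 3, 84003442 to 84003940, 123 SAHA tags in 499 bp gave 246.5 tags per kb (204.9 to 294.1). That region also had the highest score of the short regions, 278.95, and the highest ratio, at least 3.26 over a background of 1.14 times the average. At chromosome 17, 7163216 to 7163637, the counts were 102 for SAHA and 27 for DMSO, and their scaled ratio was 2.33 (1.51 to 3.70). The fifth, at chromosome 19, 7645302 to 7645869, held 124 tags over a background of about 1.79 times the average that could not be assigned. The backgrounds of 4 of these 5 exceeded 1.5 times the average, and the lowest, 1.14, was above the upper quartile of all short regions, 1.03.

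By score, the region at chromosome 3 was followed by one at chromosome 13, 98301951 to 98302516, with a score of 253.1 and 119 SAHA tags. Its ratio was at least 3.11, over a 10 kb background of 1.02 times the average. The third and the fourth were the regions of chromosome 7 and chromosome 1 with folds of 6.84 and 7.08, at scores of 227.8 and 210.8. The fifth was at chromosome 17, 7166722 to 7167266, with 118 SAHA tags, a score of 192.2 and a ratio of at least 2.61. It lies 3084 bp beyond the dense region of chromosome 17 with 102 tags, and the 2 are next to each other in the list. Of the 131 short regions with a score of at least 100, none lay on chromosome 19, and no autosome held over 11. Chromosome 19 held only 34 (1.54%) of all short regions, so few were to be found there.

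The shortest region of all, 266 bp at chromosome 8, 126142891 to 126143156, had its summit in the exact middle, at 133 bp. It held 55 SAHA tags, or 206.8 per kb (155.8 to 269.1), with a fold of 5.81 and a score of 128.5, where 38 tags would have passed. Its recovered background, 0.985 of the genome average, was below the lowest value that a choice of the highest background could give. That background and the ratio of 3.17 are therefore uncertain. Over the genome average itself its ratio would be 3.13.

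Short regions lay farther from the next listed region than other regions did, measured from edge to edge. The median distance to the nearest other region was 1161 bp (interval of the median 1037 to 1369 bp) and 624 bp (606 to 641 bp) for the others. Another region lay within 1 kb of 1045 short regions (47.3%, interval 45.3 to 49.4%), against 57.0% of the others, and within 1 kb on both sides of 10.4% against 16.3%. No other region lay within 10 kb of 19.1% of the short regions, against 13.9%, and none within 100 kb of 48 short regions (2.17%), against 0.940%.

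From summit to summit the order of the medians was reversed, and that of the upper quartiles was not. The median was 2301 bp for the short regions and 2784 bp for the others, and 19.03% of the short regions had another summit within 1 kb against 8.01%. The upper quartile was 7450 bp for the short regions and 6320 bp for the others. Against regions of 600 to under 900 bp alone the median was not reversed, as theirs was 2121 bp. Summits of long regions are kept apart by the length of the regions themselves, so neither measure is free of the length that chose the members. The edge distance fell from class to class: 872.5 bp at 600 to under 900 bp (interval 834 to 913 bp), 665 bp at 900 to under 1500 bp and 357 bp above 5000 bp.

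At equal scores the edge distances of short and other regions were close. At scores of 50 to 60 another region lay within 1 kb of 45.2% of the short regions (interval 42.4 to 48.1%) and of 45.6% of the others (44.2 to 46.9%). At 60 to 80 the shares were 45.9% and 48.6%, and at 80 to 100 they were 55.3% and 51.2%, with overlapping intervals in each case. At 100 to 200 they were 59.8% (51.1 to 68.0%) and 56.5% (55.7 to 57.2%), with median distances of 645 and 668 bp. With only regions that score at least 100 kept, as regions and as neighbours, a region lay within 1 kb of 37.4% of the short regions and 47.8% of the others, and the medians were 2493 and 1167 bp. In that last comparison the scores were not equal.

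Distance to broad regions was greater for the short regions at equal scores too. The nearest region over 5 kb lay at a median distance of 110.7 kb (interval 101.3 to 121.4 kb) from a short region, and of 63.1 kb (61.7 to 64.3 kb) from another region of up to 5 kb. A region over 5 kb lay within 10 kb of 258 short regions (11.7%), against 20.7% of all other regions. Within 1 kb the share was 2.08% (46 short regions), against 6.46%. None lay within 1 Mb of 236 short regions (10.7%), against 5.85% of all other regions. At scores of 50 to 60 the median was 116.5 kb (98.9 to 132.3 kb) for the short regions and 83.2 kb (78.7 to 88.3 kb) for the others, and at 60 to 80 it was 111.8 kb (96.8 to 131.3 kb) and 79.96 kb (76.8 to 83.4 kb). At 80 to 100 the intervals overlapped, at 92.5 kb (70.0 to 124.6 kb) and 75.3 kb (70.4 to 79.2 kb). Regions of 600 to under 900 bp were closer to the short ones, with 90.3 kb (83.7 to 98.3 kb) at scores of 50 to 60, 91.1 kb (85.4 to 97.1 kb) at 60 to 80 and 84.5 kb (78.2 to 92.4 kb) at 80 to 100. Their intervals overlapped those of the short regions in the last 2 ranges and at scores of 100 to 200.

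**Figure D4:**
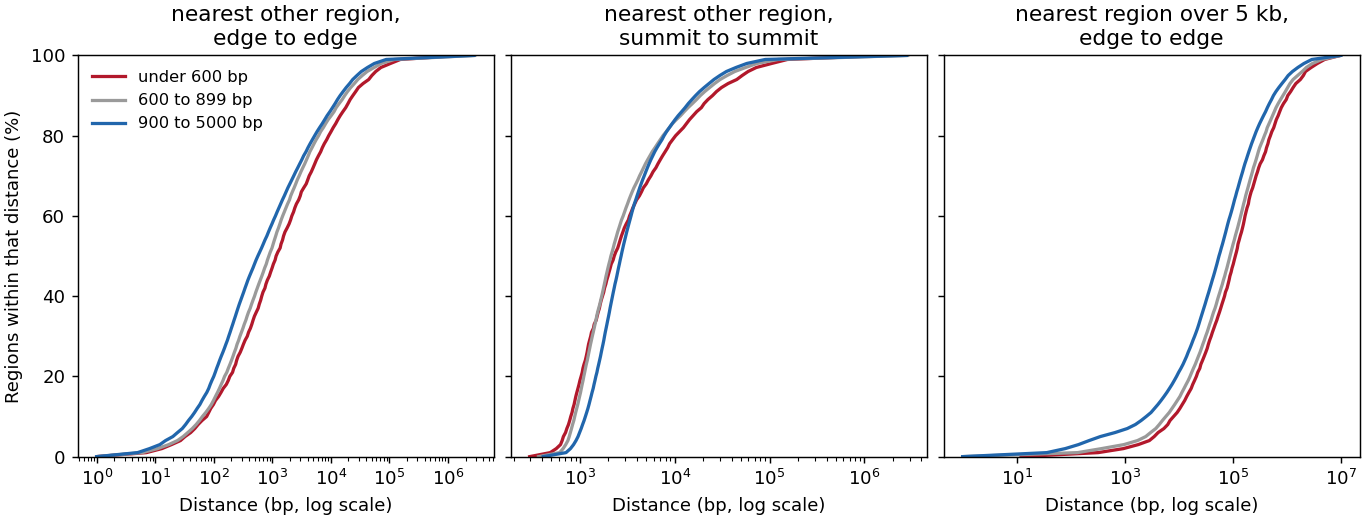
Cumulative share of regions (y, percent) within a given distance (x, bp, log scale) of the nearest other region by edges, by summits, and of the nearest region over 5 kb by edges, for autosomal regions under 600 bp (red), 600 to under 900 bp (grey) and 900 to 5000 bp (blue). By edges the red curves lie to the right, with medians of 1161 bp and 110.7 kb; by summits the red curve lies to the left over the lower part.

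The nearest other region was itself short for 106 short regions (4.80%, interval 3.99 to 5.78%), against 3.40% of the other regions, where 3.63% of the list is short. Among those with a neighbour within 1 kb it was short for 52 of 1045 (4.98%), against 2.86%. The nearest other region was over 5 kb for 83 short regions (3.76%), against 8.06% of the others. When regions up to 1 kb apart were joined into runs, 1162 short regions (52.7%) stood alone, 768 (34.8%) were in runs of 2 or 3 regions and 277 (12.6%) in runs of 4 or more. No run held over 2 short regions, and 14 of the 38687 runs consisted of 2 short regions and no other. A region over 5 kb was in the run of 92 short regions (4.17%). Such run counts are not given for the other regions, so they are not shown to be particular to the short ones. The largest run with 2 short regions spanned 47.6 kb at chromosome 7, 121895427 to 121943067, with 15 regions, the longest of 11113 bp. Its 2 short regions held 61 and 76 SAHA tags, at 142 tags per kb each.

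The 5 short regions nearest to a broad region lay 12 to 35 bp from its edge. At chromosome 6, 5908021 to 5908544, 84 SAHA tags lay 12 bp from one region over 5 kb and 4 bp from another of 4722 bp. Its fold of 2.75 was the lowest of all short regions, over a background of 1.44 times the average. At chromosome 6, 127977137 to 127977688, 86 tags lay 26 bp from a region of 11320 bp, with a fold of 4.01. A region of 330 bp at chromosome 5, 114342916 to 114343245, held 45 tags 30 bp from a region of 5882 bp. The remaining pair, at chromosome 17, 86744526 to 86745104, and chromosome 9, 20551066 to 20551623, held 79 and 67 tags, 34 and 35 bp from regions of 7386 and 9109 bp. In both, the background was the genome average, as in 65.9% of all short regions.

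The 5 most isolated short regions lay 969.9 to 1554 kb from any listed region. The farthest, at chromosome 1, 11319480 to 11320015, held 66 SAHA tags, 1554 kb from the next region. The others were at chromosome 15, 71532401 to 71532996 (70 tags, 1329 kb), chromosome 10, 50417455 to 50417944 (64 tags, 1246 kb), chromosome 2, 95327807 to 95328331 (68 tags, 1140 kb), and chromosome 8, 19880970 to 19881543 (81 tags, 969.9 kb). The background of all 5 was the genome average. Only the last, with a fold of 6.22 and a score of 93.95, stood well above the cutoff, and the others scored 54.18 to 67.19.

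Isolation went with little else in the short regions. The 1045 with a neighbour within 1 kb had a median of 128.0 tags per kb, a fold of 3.84 and a ratio of 1.87. The 741 whose neighbour was 1 to 10 kb away had 126.3 tags per kb, a fold of 3.67 and a ratio of 1.86. The 373 whose neighbour was 10 to 100 kb away had 125.5 tags per kb, a fold of 3.75 and a ratio of 1.85, and the 48 with none within 100 kb had 128.8, 4.05 and 1.88. A background at or below the average, within 0.1%, was found in 65.3%, 65.9%, 68.1% and 64.6% of these groups, in that order. The share with a background of at least 1.5 times the average was 1.53%, 0.675%, 0.536% and 0%.

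Short regions lay on every autosome, with a 1.97-fold range of their share among a chromosome's regions, which widened to 3.85-fold with a limit of 500 bp (386 regions). The share was lowest on chromosome 19, where 34 of 1421 regions (2.39%, interval 1.72 to 3.32%) were short, then on chromosome 6 (71 of 2891, 2.46%) and chromosome 11 (94 of 3787, 2.48%). It was highest on chromosome 13, with 148 of 3144 regions (4.71%, interval 4.02 to 5.50%), followed by chromosome 12 (4.55%) and chromosome 3 (4.44%). The intervals of chromosomes 19, 6, 11 and 2 lay below the overall 3.63%, and those of 4 others, chromosomes 1, 3, 12 and 13, above it.

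**Figure D5:**
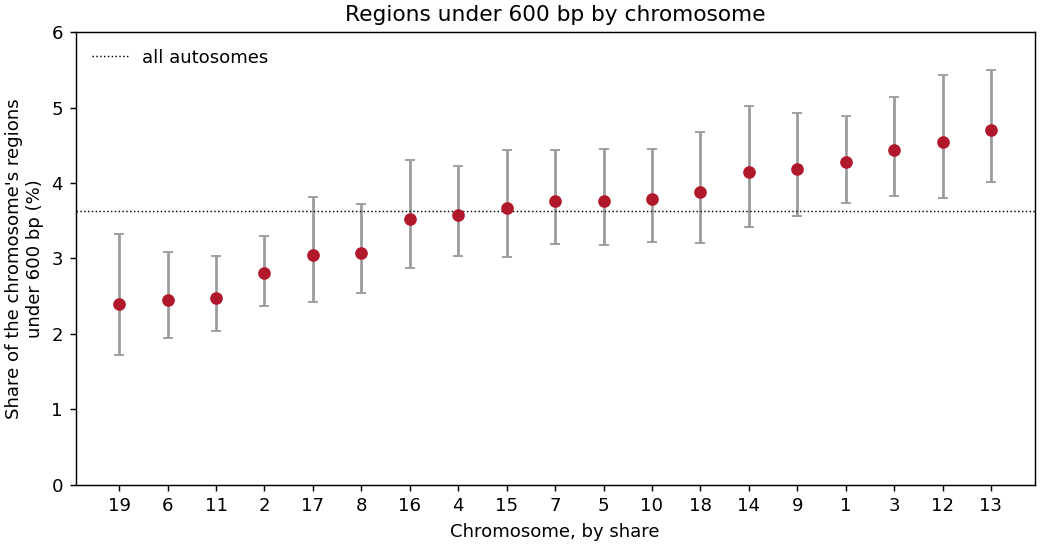
Share of each autosome's listed regions that were under 600 bp (y, percent), with chromosomes ordered by that share (x) and bars giving 95% Wilson intervals. The share runs from 2.39% on chromosome 19 to 4.71% on chromosome 13, and the dotted line is the share over all autosomes, 3.63%.

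Per Mb between the first and the last region of a chromosome, the number of short regions ran from 0.486 on chromosome 6 (95% Poisson interval 0.380 to 0.613) to 1.28 on chromosome 18 (1.04 to 1.55), around 0.928 over all autosomes. Chromosomes where the other regions had a higher DMSO background had a lower share of short ones, with a Spearman correlation of -0.80 over 19 chromosomes. That is a description, since all points come from the same 2 libraries and the background enters the cutoff. The median background of the other regions was 1.62 times the genome average on chromosome 19 and 1.17 on chromosome 13. Within the short regions the chromosomes were alike in density, with medians of 124.8 tags per kb on chromosome 14 to 131.9 on chromosome 6. Their median distance to a region over 5 kb differed more, from 44.8 kb on chromosome 7 to 208.8 kb on chromosome 13.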

How the data were processed

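The submitters' processing notes name build mm9 and the tools MACS 1.4.0rc2, SAMtools, BWA 0.5.9 and CASAVA 1.7.0. Per the file headers, MACS took SAHA reads as ChIP and DMSO reads as control, at a p-value cutoff of 1e-05, and kept at most 3 duplicates per position, leaving 123676661 SAHA tags (97.4%) and 76214516 DMSO tags (65.6%). The unequal loss of duplicates cannot be undone from the list. The deposited columns are whole counts of SAHA tags, a score, a fold enrichment ratio and an FDR in percent. The authors' fold and score were used to describe and rank regions. Regions with more DMSO signal are not part of the list used here.

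In Python 3.11.15 (scipy 1.17.1, pandas 2.3.3, numpy 2.4.6), the background was taken as the Poisson mean that gives the listed score from the listed tags. For short regions the rounding of the score (0.005) leaves a window of 0.00249 tags (median). The first match was kept, in the order genome average, region, 1 kb, 10 kb. That the caller uses the highest of these is known for it, not stated in the header. Distances were checked against a direct search on the listed regions of chromosome 19. Recovery was checked on scores simulated from these same backgrounds, with matches to 1 kb and 10 kb counted as the same. That check cannot show which backgrounds the caller used, nor whether 1 kb and 10 kb matches were told apart. Intervals of medians are order-statistic intervals, and neighbouring regions are not independent. Named regions are the 5 of highest fold, density, score and isolation, the 5 nearest to a region over 5 kb, and the shortest (23 different regions). Members, lists and descriptions were chosen with earlier results of these data known.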

Additional observations from a re-analysis of the deposited data

Results flagged for a closer look

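Chromosome X, which lies outside the autosomal rule, also held short regions: 48 of its 574 regions were under 600 bp (8.36%, 95% Wilson interval 6.37 to 10.9%), a signal in data that no comparison above uses. Their median was 125.4 SAHA tags per kb, in a range of 115.6 to 156.7, with a median fold of 3.43. In 87.5% of them the background did not exceed the genome average (tolerance 0.1%). The difference from the autosomes was not tested.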

How the results depend on the processing

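Of 38 values under other settings, 16 stayed within the interval of the main value or within 1.5 times the main count. Among regions with a score of at least 100 alone, distances included, there were 131 short regions, with 157.6 tags per kb, 37.4% within 1 kb of another region at a median of 2493 bp, and a ratio of 2.31; the fold, 4.93, then exceeded that of the other regions. A limit of 500 bp left 386 regions, with 129.2 tags per kb, a fold of 3.65, a ratio of 1.91 and a range of 3.85 between chromosomes. A limit of 700 bp gave 6998 regions, with a fold of 3.86 and a ratio of 1.84. By summits, 19.03% lay within 1 kb and the median was 2301 bp, both reversed against the other regions. Within 10 kb the share was 80.9%. Regions over 10 kb lay at a median of 1118 kb. At scores of 50 to under 100 only, added after the data were seen, density was 126.1 tags per kb, the ratio 1.86 and the fold 3.75, above the 3.42 of the others. Against regions of 600 to under 900 bp alone, the other density was 133.8 tags per kb. The range between chromosomes had no value at a score of at least 100, since chromosome 19 held no such region. Fewer regions under stricter limits follow by construction, and for the remaining shifts the cause was not tested. Positions relative to genes were not run.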
